A study of Mus musculus with 27 samples.

Results

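The regions described here are the boundaries between topologically associated domains (TADs) on the 19 autosomes of C2C12, a mouse myoblast line. They were selected from the Hi-C contact map itself. Each 40 kb bin received an insulation score, the log2 of the mean contact in the 480 kb by 480 kb square across the bin over the mean of that value on its chromosome. The delta of a bin was the mean score of the 8 bins on its left minus that of the 8 bins on its right, and a boundary was called where the delta crossed from positive to 0 or below. This gave 2437 boundaries among 59294 autosomal bins with a delta, so 4.11% of the bins were called. The same rule gave 173 boundaries on chromosome X and 2610 in all. The rule also defined 2435 autosomal domain centres, where the delta crossed in the other direction, and these serve below as a comparison inside domains.

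The study deleted the X-linked *Firre* locus in mouse embryonic fibroblasts (MEFs) and asked whether a TAD boundary survives, with Hi-C, RNA-seq and CTCF ChIP-seq. The C2C12 Hi-C comprised 2 wild-type replicates, cut with HindIII, which the authors pooled into 1 matrix. There is therefore no spread between replicates and no test, and each interval below is a 95% interval of counting error only, over bins that are not independent of their neighbours. The label of the cell line could not be checked, since Hi-C holds no RNA. The protocol text given with both samples describes Hi-C replicates from embryo-derived MEFs, while their titles, source and cell line labels all give C2C12, which is followed here. The ChIP-seq was not analysed here. The only other samples used were 6 wild-type MEF RNA-seq libraries, 3 female and 3 male, from another cell type than C2C12.

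TADs are stretches of chromosome within which loci meet more often than with loci outside. In the loop extrusion model, cohesin enlarges a chromatin loop until it meets CTCF, a zinc finger protein that binds a long motif in a given orientation, and boundaries form where many such encounters end. Boundaries are also known to lie near active promoters and housekeeping genes. At a larger scale, chromosomes are divided into the A compartment, rich in genes and active chromatin, and the B compartment, poor in genes and often attached to the lamina.

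The sequence feature examined at the boundaries was AGGGGGCGC, a stretch of the core of the CTCF motif, searched as an exact match on both strands of mm9. As a motif of the same letters in another order, GGCGAGGGC was searched alongside. Both hold 1 CpG, and neither contains the other. The core stretch was found in 226 of the 2437 boundary bins (9.27%), while 7.45% of all scored bins held it. The 8 matches shown are those nearest to the middle of the bin in the strongest boundaries that had contacts in every flanking bin and held a match. The capitals mark the match, each sequence is written along the strand of the match, and the coordinates are those of mm9.
Ccnjl, chr11:43342740-43342768, plus strand: gcagggcaggAGGGGGCGCccgtcccgga
Aacs, chr5:125969497-125969525, plus strand: gctagtctcaAGGGGGCGCtgctggtttg
Elovl4, chr9:83699431-83699459, plus strand: ggcgctgggtAGGGGGCGCagggccttgc
near Tmem121, chr12:114460687-114460715, plus strand: catggtcaccAGGGGGCGCacgagccctg
Rnf145, chr11:44332852-44332880, minus strand: ccggagaaggAGGGGGCGCggcggggagg
near Adck1, chr12:89706502-89706530, plus strand: tacatagtctAGGGGGCGCcactgtcagc
near Hap1, chr11:100222565-100222593, plus strand: tacaaacaatAGGGGGCGCatgcctttaa
near Serpinb1a, chr13:32919971-32919999, plus strand: ctgaaccaccAGGGGGCGCacagttcatg

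The match in *Ccnjl*, a cyclin J-like gene, lay in an annotated exon 0.464 kb from the nearest protein-coding start. Those in *Elovl4*, an elongase of very long fatty acids, and in *Rnf145*, a ubiquitin ligase gene, lay in introns 0.471 kb and 0.396 kb from a start. The match in *Aacs*, which encodes acetoacetyl-CoA synthetase, was intronic and 13.3 kb from a start. The other 4 overlapped no annotated gene and lay between 5.12 kb (*Hap1*) and 108 kb (*Adck1*) from the nearest start. The strengths of these 8 boundaries ran from 2.63 to 3.40, and their ranks among the autosomal boundaries from 21 to 114. None of the 10 strongest boundaries held the core stretch in its own bin.

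Boundary strength, the peak of the delta on the left minus its trough on the right, is a difference of log2 scores and was part of the rule, so its values are a description. The strengths ran from 0.0051 to 6.64 with a median of 1.13 (95% interval 1.09 to 1.17) and quartiles of 0.64 and 1.69. A strength over 2 was found at 373 boundaries (15.3%), and 55 (2.26%) stayed under 0.1. The mean insulation score at the boundary bin was -1.18 in the strongest quartile and -0.19 in the weakest, against 0.34 at domain centres.

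**Figure D1:**
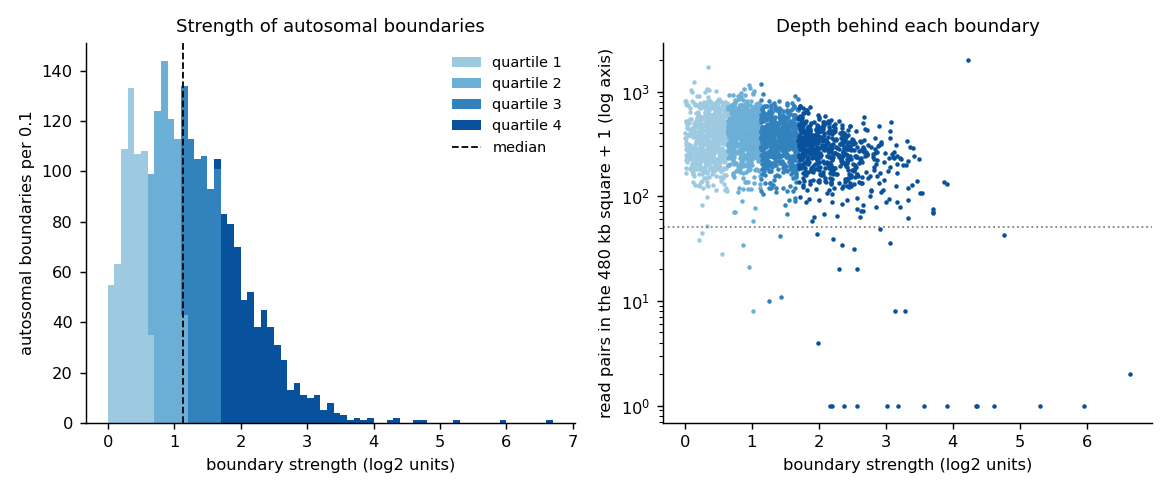
Left, number of autosomal boundaries in steps of 0.1 of strength (log2 units), shaded by quartile, with the median of 1.13 as a dashed line. Right, each boundary's strength against the read pairs recovered in its 480 kb square plus 1 (log axis); the dotted line marks 50 pairs, and several of the strongest boundaries lie at or near 0 pairs.

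The depth behind a boundary was recovered from the corrected signal, since 99.6% of autosomal pairs of bins came out as whole reads within 0.05. The matrix held 23914542 read pairs, of which 15499397 joined different bins of a chromosome. The squares at boundaries held a median of 343 read pairs (quartiles 239 and 468), against 476 over all scored bins. The rule selects low squares, so this difference is part of it. In all, 2377 boundaries (97.5%) had contacts in every bin within 480 kb on both sides.

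The edge of the rule was fine. Among the members, the weakest crossings were at chr18:41600001-41640000, with a strength of 0.0051, at chr15:15720001-15760000, with 0.011, and at chr13:30400001-30440000, with 0.012. The last lies beside *Agtr1a*, the angiotensin II type 1a receptor, and the other 2 have no protein-coding start within a bin. Just outside, the delta fell to 0.00022 at chr4:17760001-17800000, to 0.00047 at chr4:67880001-67920000 and to 0.00079 at chr3:44600001-44640000 without reaching 0. The squares of the 3 weakest members held between 360 and 805 read pairs.

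Neighbouring boundaries were a median of 920 kb apart (quartiles 720 and 1200 kb), and 60.3% of the 2418 intervals spanned at most 1 Mb. The longest interval with every bin scored spanned 3520 kb, and the stretch inside it was chr6:108920001-112400000. It holds the neuronal glutamate receptor gene *Grm7* and 5 protein-coding starts in all, 2 of them detected in MEFs, and 0% of its bins were in the A compartment. The next longest spanned 2480 kb on chromosome 3 around *Zfhx4* and 2400 kb on chromosome 14. Among the intervals with every bin scored, the shortest 589 held a mean of 10.5 protein-coding starts per Mb and had 47.6% of its bins in A, while the longest 588 held 7.74 per Mb and had 38.4% in A.

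The density of boundaries varied little between autosomes, from 9.60 per 10 Mb on chromosome 6 to 11.3 on chromosome 19. The total depends on the sizes of the square and of the delta, with 1961 boundaries for a square of 800 kb and 3027 for a delta over 5 bins. How far these sizes set the spacing and the even density was not tested. Across the 19 autosomes it did not follow gene density (Pearson's r = -0.01, Spearman's rho = -0.22 with protein-coding starts per Mb), a description over chromosomes that share 1 library. Median strength ran from 1.00 on chromosomes 12 and 17 to 1.32 on chromosome 13. Chromosome 13 also had the largest share of its boundaries in the strongest quartile, 35.8%, and chromosome 19 the smallest among autosomes, 16.9%.

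**Figure D2:**
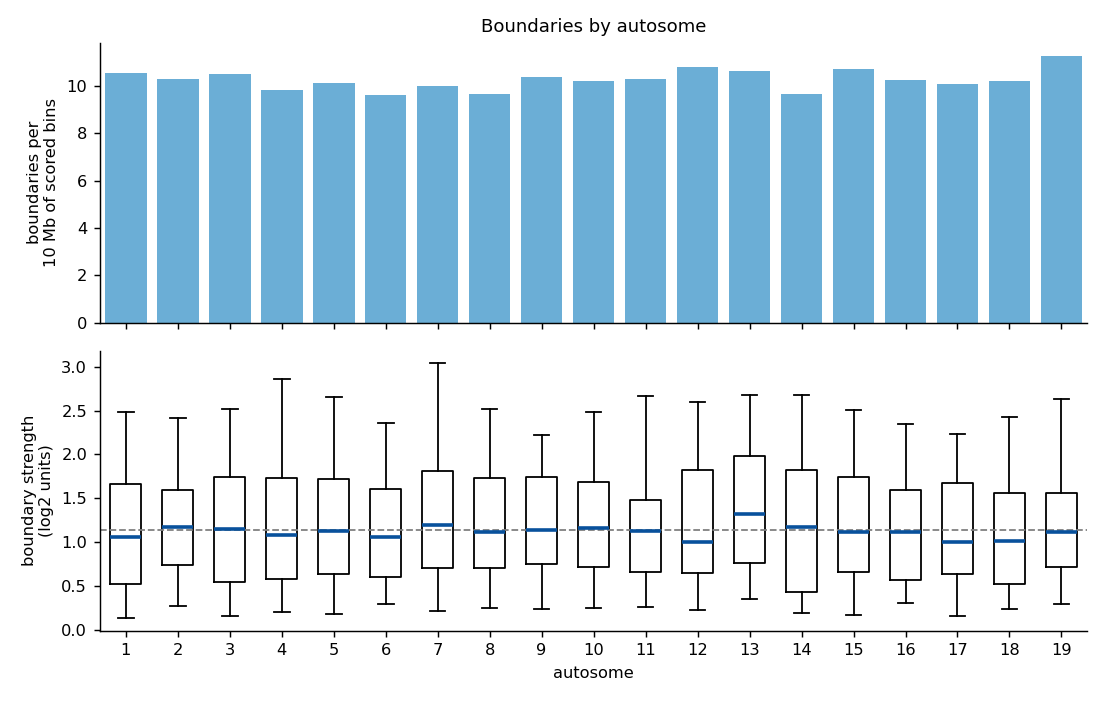
Top, boundaries per 10 Mb of scored bins on each autosome, from 9.60 to 11.3. Bottom, boundary strength in log2 units, with boxes for the quartiles, a line for the median and whiskers for the 5th and 95th percentiles of the boundaries of that autosome; the dashed line is the median of all, 1.13, and chromosome 13 is highest with 1.32.

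The 10 highest strengths lay mostly in clusters of repeated genes with almost no contacts. The top rank, at chr7:23960001-24000000 with a strength of 6.64, falls in the cluster of vomeronasal receptor genes beside *Vmn1r165*, and its square held 1 read pair. The third (5.30, beside *Vmn2r47*), the sixth (4.35, beside *Vmn1r135*) and the seventh (4.34, beside *Vmn1r107*) lie in the same receptor families on chromosome 7, each with 0 recovered read pairs in the square. The second (5.95) and the ninth (3.92) lie near *Skint6* and *Skint4* on chromosome 4, immunoglobulin superfamily genes of thymus and skin, again with 0 recovered read pairs. The squares of the third and the ninth did hold signal, in 0.83% and 0.76% of their pairs of bins, which did not come out as whole reads. Of these 10 boundaries, 8 had under 50 read pairs in the square, and 6 were in bins where over 50% of the signal was inter-chromosomal, against a median of 12.99% over all boundaries. The part of duplicated sequence or missing coverage in these strengths was not tested. Over all 2437 boundaries, 35 had under 50 read pairs and 20 had such an inter-chromosomal share. Without those 35, the shares and medians over all boundaries given below stayed within their intervals.

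The fifth in rank, chr4:122120001-122160000 with a strength of 4.62, lies outside these clusters, 227 kb from the nearest protein-coding start, and also had 0 read pairs, with contacts in 75% of the bins on its poorer side. The remaining 4 of the first 11 ranks had contacts in every flanking bin and in the square. The fourth in rank, chr10:7280001-7320000 beside the lipoprotein receptor-related gene *Lrp11*, had a strength of 4.77, 42 read pairs (30.3 to 56.8) and a compartment value of -1.07 on its left and 0.34 on its right. The eighth, chr5:15080001-15120000 beside *Speer4d* of a testis gene family, stood apart with 2005 read pairs in its square, the most at any boundary. Its score from the corrected signal was nevertheless low, at -1.615. Contacts filled 53.5% of the pairs of bins in the square, and its bin holds 1 HindIII site. The part of the correction in this strength was not tested. The tenth, chr14:54480001-54520000, had a strength of 3.91 with 129 read pairs, no protein-coding start within a bin, and compartment values of -1.17 and 0.91. The eleventh, chr13:23600001-23640000, had a strength of 3.87 with 137 read pairs and lies in the large cluster of replication-dependent histone genes, with 16 protein-coding starts in its bin or the bins beside it, *Hist1h4h* nearest.

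Other deep boundaries with contacts in every flanking bin lay near genes of unrelated function. The boundary chr12:70200001-70240000 (3.71) is beside *Rps29*, a protein of the small ribosomal subunit, and *Lrr1*, and its compartment value went from -1.31 to 1.58. The boundary chr4:147200001-147240000 (3.70) is beside *Zfp933*, *Miip* and the retrovirus restriction gene *Fv1*. A further boundary on chromosome 4, chr4:60000001-60040000 (3.70), lies at *Mup6* and *Mup4* of the major urinary protein cluster. The boundary chr7:135920001-135960000 (3.53) is next to *Sec23ip*, of vesicle transport, and *Mcmbp*, which binds the replicative helicase, with compartment values of 1.28 and -1.30. These 4 squares held between 68 and 107 read pairs.

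On the remaining autosomes the strongest boundary of each had a strength between 2.84 and 3.46 and between 78 and 358 read pairs. On chromosome 11 it lay at *Trim25*, an antiviral ubiquitin ligase, and *Coil*, which encodes coilin of the Cajal body (chr11:88840001-88880000, 3.46). On chromosome 6 it lay at *Eif4e3*, a cap-binding protein, with *Gpr27* and *Prok2* (chr6:99600001-99640000, 3.36). The strongest of chromosome 15 was at *Card6*, *Rpl37* of the large ribosomal subunit and *Prkaa1*, a catalytic subunit of AMP kinase (chr15:5040001-5080000, 3.15). On chromosome 9 it was the *Elovl4* boundary shown above (3.11), which also has the mitotic checkpoint kinase gene *Ttk* beside it and held 2 forward matches of the core stretch. On chromosome 8 it lay at *Myom2*, which encodes a protein of the sarcomeric M band, and *Kbtbd11* (chr8:15040001-15080000, 3.05). On chromosome 17 it had 6 protein-coding starts within a bin, among them *Spats1* and the mitochondrial tRNA synthetase gene *Aars2* (chr17:45600001-45640000, 3.23). On chromosomes 1, 2, 3, 16, 18 and 19 the strongest boundary had no protein-coding start within a bin. The nearest start there was that of *Icos*, *Kcnj3*, *D3Ertd751e*, *Adamts1*, *Gm6756* and *Psat1*, respectively.

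Gene starts, which the rule did not use, were more frequent at boundaries. A protein-coding start lay in 878 boundary bins, 36.0% (34.1 to 38.0), beside 25.2% of all scored autosomal bins and 19.2% (17.7 to 20.8) of domain centres. The share was higher at boundaries than over all bins on 18 of 19 autosomes, the exception being chromosome 5 with 24.8% against 26.01%. The highest share was 53.8% on chromosome 19, where 33.3% of all bins held a start. It rose with strength only up to the third quartile. The weakest quartile had a start in 23.0% of its bins (19.8 to 26.5), near the share of all bins, and the next 3 in 37.1%, 42.4% and 41.7%.

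The excess of starts around the boundary reached to 200 kb on either side. The mean number of starts was 0.53 per bin at the boundary and 0.48 and 0.50 in the bins beside it. On the left and right it was 0.43 and 0.42 at 120 kb and 0.37 and 0.37 at 200 kb. At 400 kb it had fallen to 0.31 and 0.30, below the mean of 0.36 over all bins. Starts showed no preferred direction, with 49.9% forward on the left (48.2 to 51.6, 3326 starts) and 49.9% on the right (48.2 to 51.6, 3277 starts) in the 3 bins nearest to the boundary bin.

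**Figure D3:**
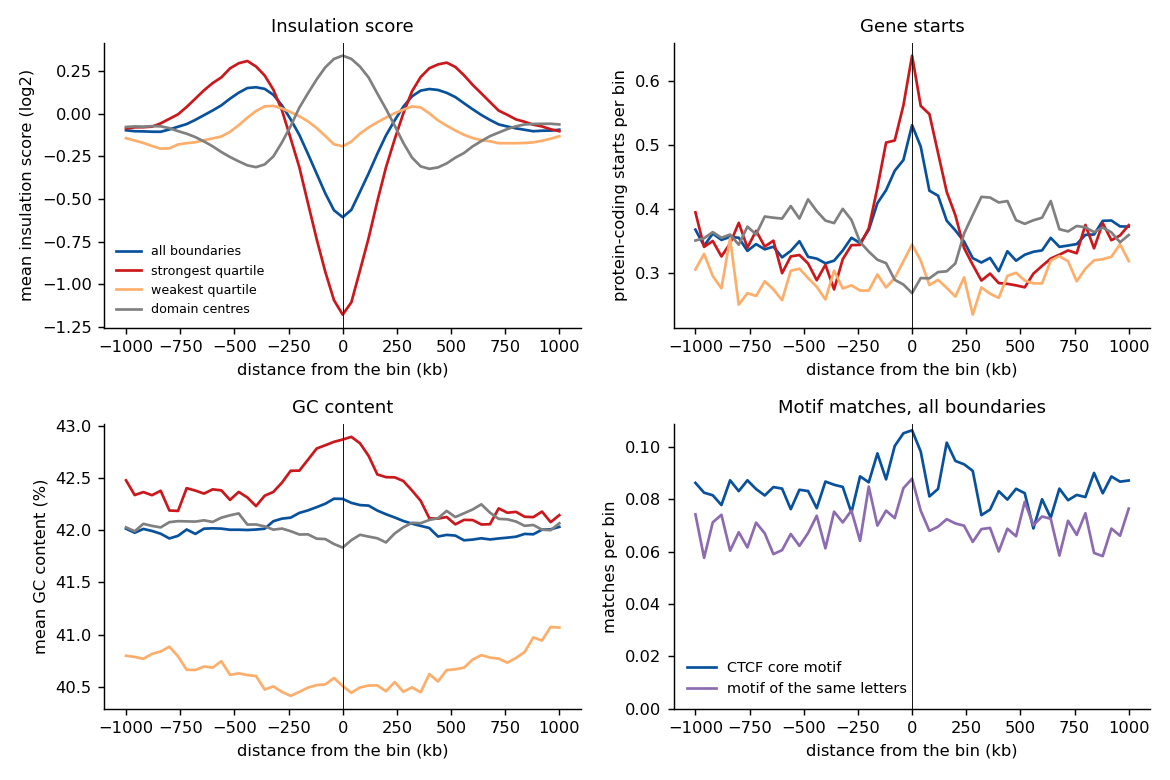
Mean values in 40 kb bins within 1000 kb of boundaries and domain centres, by distance in kb. Panels give the insulation score (log2), which the rule used, protein-coding starts per bin, GC content in percent and matches per bin of the CTCF core stretch and of the motif with the same letters; starts peak at 0.53 per bin at the boundary and both motifs rise there together.

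GC content differed by less than its own spread. The median was 41.9% at boundaries (quartiles 39.05 and 44.99) and 41.4% over all scored bins (38.7 and 44.6), and it was higher at boundaries on 18 of 19 autosomes. By strength, the weakest quartile had a median GC of 39.2%, below that of all bins, and the others 42.2%, 43.0% and 42.5%. HindIII sites (AAGCTT), at which the library was cut, had a median of 12 per boundary bin and 13 over all bins. Across boundaries, strength was weakly related to GC (Spearman's rho = 0.23, n = 2437) and hardly to HindIII sites (-0.05), values that share the same bins and library.

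Within classes of GC content the share with a start was again higher at boundaries. All scored bins were split into 4 classes of about equal size by GC. In the poorest class 10.8% of the boundary bins held a start (8.48 to 13.8) beside 8.40% of all bins, and in the second 23.2% (19.9 to 26.8) beside 18.0%. In the third 43.2% did (39.5 to 47.0) beside 28.97%, and in the richest 59.6% (55.9 to 63.3) beside 45.3%. Boundaries were 3.599% of the bins of the poorest class and 4.53% of the richest.

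The CTCF core stretch was found at 0.106 matches per boundary bin, 0.0837 over all scored bins and 0.071 at domain centres. This was 1.27 times the level of all bins (1.12 to 1.43), and higher at boundaries on 14 of 19 autosomes. The motif of the same letters was raised to a like degree, with 0.0878 matches per boundary bin beside 0.0675 over all bins. Within the GC classes, from poorest to richest, the share of boundary bins and of all bins with the core stretch was 1.68% beside 1.42%, 3.74% beside 3.35%, 9.60% beside 7.06% and 19.6% beside 17.9%. The interval at boundaries excluded the share of all bins in the third class alone (7.59 to 12.1).

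The strand of the core stretch was compared between the sides of a boundary, with no test of the difference. In the 3 bins on the left, 48.3% of 714 matches were forward (44.7 to 52.0), and in the 3 bins on the right 51.9% of 640 (48.0 to 55.7). In the strongest quartile the shares were 45.2% of 210 on the left (38.7 to 52.0) and 48.9% of 182 on the right (41.7 to 56.1). The gap was widest in the weakest quartile, with 45.1% of 122 on the left (36.5 to 53.9) and 56.8% of 95 on the right (46.8 to 66.3). The second quartile had 51.6% and 54.2%, the third 50.5% and 50%, and domain centres 49.4% of 547 and 49.9% of 491. The intervals of the sides overlapped in each of these sets. An exact match of 9 bases misses most variants of the motif, and a match is not a bound site.

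Compartments were taken from contacts over 960 kb apart, which no square of the rule used, and a bin was counted as a compartment change where the compartment differed between the eighth bin on its left and the eighth on its right. This was so at 894 boundaries, 36.7% (34.8 to 38.6), and at 27% of all scored bins and 18.0% of domain centres (16.5 to 19.6). The share was higher at boundaries than over all bins on all 19 autosomes. It climbed with strength in each step, from 15.7% (13.1 to 18.8) in the weakest quartile to 28.4%, 43.8% and 58.8% (54.8 to 62.6) in the strongest. The weakest quartile thus lay below the level of all bins, and the strongest was over 2 times that level.

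Boundaries between compartments were also the deeper ones. The median strength was 1.55 (1.49 to 1.65) at the 443 boundaries with A on the left and B on the right and 1.48 (1.40 to 1.57) at the 451 with the opposite order. It was 1.08 (1.01 to 1.16) at the 611 boundaries with A on both sides and 0.82 (0.75 to 0.87) at the 932 with B on both sides. A start lay in 53.2% of the boundary bins between A and A, where 38.8% of all such bins held one, and in 20.2% of those between B and B, where 15.2% of all such bins did. At boundaries with a compartment change the share was 42.4% with A on the left, beside 29.3% of all such bins, and 39.2% with A on the right, beside 27.8%. Among boundaries without a compartment change the share with a start went from 21.2% (17.9 to 24.9) in the weakest quartile to 43.4% (37.4 to 49.6) in the strongest, beside 23.9% of all bins without a change. Among those with one it stayed between 32.3% and 43.4%, beside 28.5% of all bins with a change.

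Contact further across the boundary, between bins 1040 to 2000 kb apart and centred on it, was also outside the rule. It was given over the mean of its distance on the chromosome. The median ratio was 0.768 at boundaries, 0.821 over all scored bins and 0.884 at domain centres, with quartiles at boundaries of 0.470 and 1.22. It was lower at boundaries than over all bins on 15 of 19 autosomes. By strength the medians were 1.06, 0.803, 0.689 and 0.614 from the weakest to the strongest quartile, and the share of boundaries with a ratio below 1 was 46.4%, 63.2%, 73.8% and 76.4%, beside 61.1% of all scored bins.

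Long-range contact was closer to that of all bins once the compartments on both sides were matched. Where both sides were A, the median ratio was 0.638 at boundaries and 0.638 over all such bins. Where both were B, it was 1.04 and 1.05. It was 0.652 beside 0.686 for A on the left with B on the right and 0.692 beside 0.717 for the opposite order. In the GC classes, from poorest to richest, the ratio was 1.14 at boundaries beside 1.17 over all bins, 0.819 beside 0.895, 0.703 beside 0.729 and 0.629 beside 0.613, so that it was lower at boundaries in all but the richest. Among boundaries without a compartment change, the medians still fell with strength, from 1.07 in the weakest quartile to 0.668 in the strongest, while their GC rose from 38.8% to 42.5%.

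**Figure D4:**
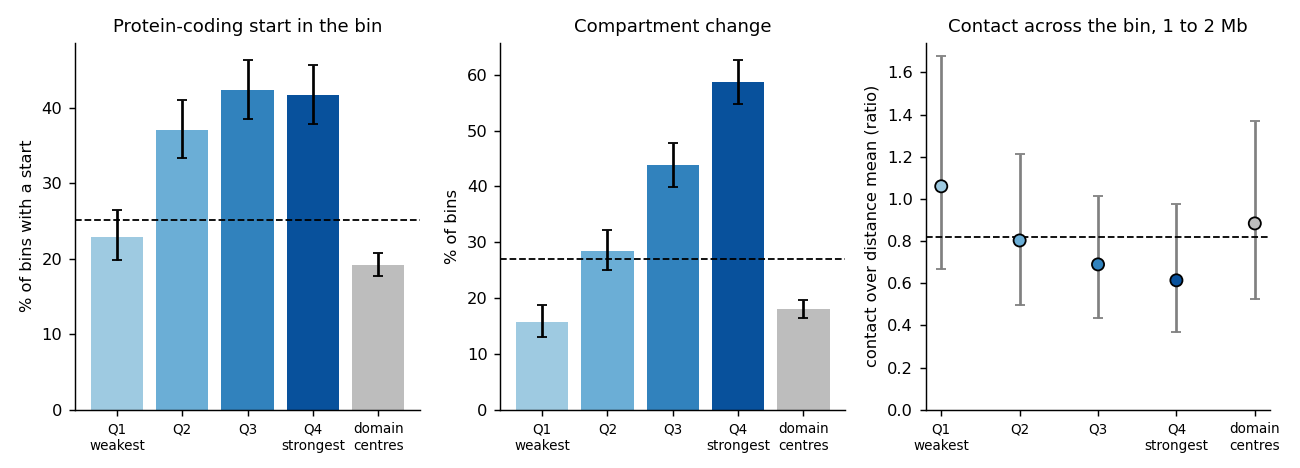
Measures by strength quartile of the autosomal boundaries and at domain centres. Bars give the percent of bins with a protein-coding start and with a compartment change, with 95% Wilson intervals, and points give the median contact over the distance mean at 1 to 2 Mb with its quartiles; dashed lines mark all scored bins. The compartment change climbs from 15.7% to 58.8%, and the contact ratio goes from 1.06 to 0.614.

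The share of a bin's signal that was inter-chromosomal hardly differed at boundaries. The rule did not use inter-chromosomal signal, but the total by which it is divided includes contacts that the squares used. The median was 12.99% at boundaries (quartiles 10.6 and 16.1), 13.2% over all scored bins and 13.7% at domain centres. It was higher at boundaries than over all bins on 7 autosomes and lower on 12, and it lay between 12.8% and 13.2% in the 4 strength quartiles.

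Gene families, gathered by symbol, differed in how often their members started in or next to a boundary bin, with 17.3% of the 21218 autosomal protein-coding genes as the background. The families of ribosomes and of respiratory complex I stood above it. Of 77 mitochondrial ribosomal protein genes (*Mrpl* and *Mrps*) 23 did so, 29.9% (20.8 to 40.8), and of 142 genes with *Rpl* or *Rps* symbols 36, 25.4% (18.9 to 33.1). Of the latter, 53 have symbols that mark pseudogenes and 9 are kinases or a binding protein. In a split made after the values were seen, the other 80, which are subunits of the cytosolic ribosome or close paralogs, had 29, 36.2% (26.6 to 47.2), and those marked as pseudogenes had 6, 11.3% (5.29 to 22.6). For subunits of respiratory complex I (*Nduf*) the count was 12 of 41, 29.3% (17.6 to 44.5), an interval that only just excludes the background. Proteasome subunits (*Psm*, 11 of 51), initiation factors (*Eif*, 11 of 54) and kinesins (*Kif*, 6 of 37) had intervals that span it.

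Clustered families diverged. *Hox* genes were highest, with 19 of 40 genes, but these sit in 16 bins of 4 clusters. The replication-dependent histones had 22 of 67 (32.8%), in 17 bins in all, and 10 of the 67 started in bins of the strongest quartile, where 390 of all 21218 genes did. Beta-defensins (*Defb*) had 15 of 41 (36.6%) in 25 bins. Olfactory receptors (*Olfr*) were below the background, with 129 of 1106, 11.7% (9.90 to 13.7), as were vomeronasal receptors (*Vmn*), with 32 of 318, 10.1% (7.22 to 13.9), and keratins (*Krt*), with 2 of 51, 3.92% (1.08 to 13.2). Zinc finger genes (*Zfp*, 56 of 360, 15.6%), solute carriers (*Slc*, 54 of 343, 15.7%), collagens (*Col*, 6 of 42), cadherins with protocadherins (6 of 63), cytochromes P450 (*Cyp*, 12 of 98), serpins (8 of 59), *Ugt* genes (5 of 21), tubulins (1 of 25), muscle filament genes (*Myh*, *Actn* and *Tnn*, 3 of 28) and RNA polymerase II subunits (*Polr2*, 1 of 12) had intervals that include the background. Genes of a cluster share bins, so the intervals of clustered families are too narrow.

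**Figure D5:**
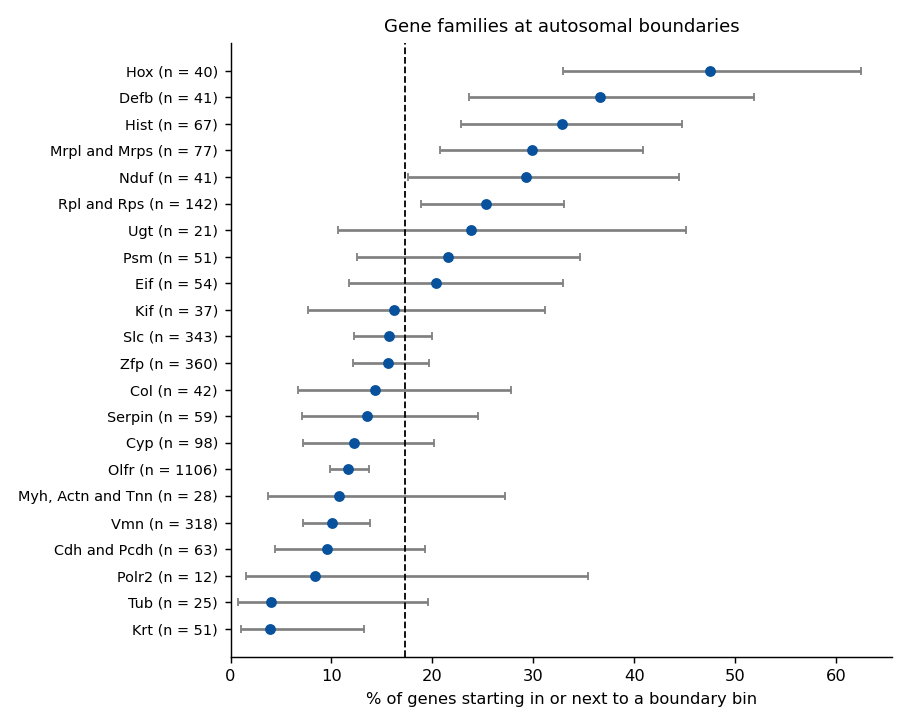
Percent of the autosomal genes of each family that start in a boundary bin or the bin on either side, with 95% Wilson intervals that treat genes as independent; the dashed line marks all protein-coding genes, 17.3%. Hox genes are highest and keratins lowest.

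Loci known from work on domain structure were looked up with their nearest boundary. A single boundary, chr1:77760001-77800000, lay between *Epha4*, an ephrin receptor of limb development, and *Pax3*, a transcription factor of muscle progenitors, with a strength of 2.31 (rank 231) and 236 read pairs. Between *Wnt6*, a signalling ligand, and *Epha4* lay 2 boundaries, the stronger at chr1:75640001-75680000 with 3.15 (rank 41). A boundary of 2.20 (rank 271) fell in the bin where *Lmbr1* starts, the gene that hosts the limb enhancer of the morphogen gene *Shh*. Most of the *Lmbr1* gene body lies on the *Shh* side of this bin, since the gene runs from its start towards *Shh*. Between *Sox9*, a regulator of cartilage, and the potassium channel gene *Kcnj2* lay 2 boundaries, the stronger with 1.99 (rank 385). The boundary between the homeobox genes *Six2* and *Six3* was weak, at 0.37 (rank 2114).

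A boundary fell inside the *Hoxa* cluster, at chr6:52120001-52160000 with a strength of 1.65 (rank 671), and inside the *Hoxd* cluster, at chr2:74520001-74560000 with 0.46 (rank 2015), while the *Hoxb* and *Hoxc* clusters held none. None lay between *Igf2* and *H19*, an imprinted pair 88.7 kb apart, which at 40 kb is barely resolvable. *Myc*, a growth regulator, was 40 kb from a boundary of 2.15 (rank 305), and *Yy1*, a factor that links enhancers to promoters, started in the bin of a boundary of 1.75. The genes of the boundary machinery itself were further away. *Ctcf* was 360 kb from a boundary of 2.17, the cohesin gene *Rad21* 440 kb from one of 2.25 and its partner *Smc3* 560 kb from one of 1.56. The bone morphogenetic protein gene *Bmp7* was 40 kb from a boundary of 1.43, and the globin genes *Hba-a1* and *Hbb-b1* were 120 and 360 kb from boundaries of 1.16 and 0.73. Of the 28 loci of this list, 9 lay within a bin of a boundary, where 17.3% of all autosomal protein-coding genes do, while the median distance was 260 kb, beside 200 kb over all such genes. Neighbours such as *Six2* and *Six3* share their nearest boundary, so the loci are not independent.

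Of 15 genes of the muscle lineage, 2 lay within a bin of a boundary, where 17.3% of all autosomal protein-coding genes do. *Pax7*, which marks satellite cells, started in the bin of a boundary of 0.85, and *Myog*, the regulator of terminal differentiation, was 40 kb from one of 1.09. *Myod1*, the myoblast determination factor, was 480 kb from a boundary of 1.35, and the neighbours *Myf5* and *Myf6* were both 280 kb from one of 0.65. The intermediate filament gene *Des* was 320 kb from the boundary of 3.15 on chromosome 1 named above, and *Mef2a* 360 kb from one of 2.12, the only nearest boundaries of the list in the strongest quartile. The other nearest boundaries ranged from 0.64, at *Id1*, an inhibitor of differentiation, to 1.67, at the transcription factor gene *Mef2c*. None was in the weakest quartile, and the median distance was 280 kb, beside 200 kb over all genes.

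Expression could be read only in MEFs, in which 6 fibroblast and 6 myoblast markers were examined over the 6 libraries. Of the fibroblast markers, *Vim* was at 4916 to 5422 CPM, *Col1a1* at 2343 to 3734, *Col1a2* at 1358 to 2875, *Col3a1* at 485 to 636, *Thy1* at 140.1 to 316 and *Pdgfra* at 8.83 to 30.2. Of the myoblast markers, *Des* was highest (10.6 to 31.7 CPM), in the range of *Pdgfra*, followed by *Myog* (0.093 to 6.04), *Cdh15* (0.17 to 2.29), *Myod1* (0.037 to 1.26), *Myf5* (0 to 0.27) and *Pax7* (0 to 0.016), with the third female replicate highest for *Myog*, *Cdh15*, *Myod1* and *Myf5*. Of 1295 genes that start in a boundary bin, 699 had at least 1 CPM in all 6 libraries, 54.0% (51.3 to 56.7). Over all 21218 genes in scored bins this was 51.7%, inside that interval. The share by quartile was 49.5%, 54.5%, 59.4% (54.2 to 64.4) and 51.03% from the weakest to the strongest. With other settings of the caller the share was 53.98% to 58.3%, and in 8 of 11 of them its interval lay above the share of all genes. The median level of detected genes was 22.9 to 25.4 TPM at boundaries over the 6 libraries, 21.6 to 23.1 TPM over all genes and 19.6 to 21.7 TPM at domain centres. The share detected at boundaries thus exceeded that of all genes beyond counting error only with some settings.

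Chromosome X under the same rule differed in depth as well as in strength. Its 173 boundaries had a median strength of 0.65, below that of every autosome, and 10.4% of them reached the strength of the strongest autosomal quartile. Its squares held a median of 195 read pairs at boundaries against 343 on autosomes, and the part of depth or copy number in the lower strength was not tested. A start lay in 19.1% of its boundary bins (13.9 to 25.6), beside 18.5% of all scored bins of chromosome X, and a compartment change in 34.1% (27.5 to 41.4) beside 27.8%.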

How the data were processed

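For Hi-C, the authors ran HiC-Pro 2.7.8 on mm9, joined the 2 C2C12 replicates and deposited the contact signal of pairs of 40 kb bins after iterative correction. For RNA-seq, the authors deposited expected counts per gene from RSEM 1.2.29, which were scaled here to CPM and, by merged exon length, to approximate TPM. The 6 libraries held 42986516 to 62283507 expected counts.

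The score left out the bin itself and needed at least 50% of the square to be usable. A square without signal took the smallest positive value of its chromosome, and of the bins at a crossing the one with the delta nearer to 0 was taken. The methods of the study use the interquartile mean, which was an alternative here. Read pairs were recovered by dividing the signal by factors per bin estimated from inter-chromosomal pairs. Compartments were the eigenvector, among the first 3 of the correlation of contact over distance in 200 kb bins, most related to GC (the second on chromosome 13). Genes came from GENCODE vM1 and sequence from NCBIM37. The boundary caller was run on simulated maps with and without domains. Their contact levels were not matched to these data, so they give no rate of false calls here. The rule set no minimum strength. Intervals are Wilson for shares, order-statistic for medians and exact Poisson for counts.

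The genes named were those at the 10 strongest, the 3 weakest and each autosome's strongest boundaries, with fixed lists of domain, muscle and family genes, of which 1 gene was not analysed here. The strongest boundaries with full coverage, the genes at the motif matches shown and those in the longest intervals were added after their values were seen. No sequence of chromosome 18 was shown. Members and lists were chosen with earlier results of these data known. Python 3.11.15, NumPy 2.4.6, pandas 2.3.3, SciPy 1.17.1 and Matplotlib 3.10.9 were used.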

Additional observations from a re-analysis of the deposited data

How the results depend on the processing

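The number of boundaries stayed within 1.5 times 2437 under each alternative tried, from 1961 with a square of 800 kb to 3027 with a delta over 5 bins, but the bins changed. Of the 2437, 53.8% lay within 1 bin of a boundary called from read pairs before the correction, an alternative chosen after seeing the data, and 57.1% within 1 bin of one called with a square of 800 kb. In the strongest quartile these shares were 75.2% and 84.2%, and in the weakest 27.7% and 25.6%. Median strength, whose scale follows the square, was 0.97 with a square of 800 kb, 1.04 with a delta over 5 bins, 1.77 with the interquartile mean, 1.53 with the median, 1.08 after smoothing, 0.83 with absent pairs left out and 1.23 before the correction. On chromosome X it was 1.35 with the interquartile mean, 1.00 with the median, 0.45 with absent pairs left out and 0.76 before the correction, below the autosomal value each time. The share of boundary bins with a start was 32.8% with a square of 320 kb, 38.5% with 800 kb, 33.5% with the interquartile mean and 33.4% before the correction. It was 60.2% within 1 bin (47.4% of all bins) and 45.8% with all gene biotypes (35.3%). A compartment change was found at 33.8% of boundaries with a square of 320 kb, 39.02% with 800 kb and 34.4% with a delta over 5 bins. It was 30.4% at a distance of 5 bins (21.8% of all bins) and 30.95% with compartment bins of 400 kb (23.7%). With a square of 800 kb, GC exceeded that of all bins by 0.77 percentage points in place of 0.51, and contact at 1 to 2 Mb was 0.696. The share of boundary genes detected in MEFs was 58.1% (55.2 to 61.01) with a square of 800 kb, 58.3% (55.8 to 60.7) with a delta over 5 bins, 57.2% (54.3 to 60.2) with the median and 58.2% (55.5 to 60.8) with absent pairs left out, beside 51.7% of all genes. It was 38.7% at 10 CPM (37.5% of all genes) and 37.2% over all genes of the count table (33.0%). The cause of these shifts was not tested. The differences from all bins in GC, core stretch and inter-chromosomal share kept their sign under the 11, 13 and 11 alternatives tried. Of the 13, 1 was not a variant of the core stretch but the motif of the same letters, at 1.30 times the level of all bins (1.13 to 1.49). It therefore says nothing on how stable the core stretch result is. The interval of the inter-chromosomal difference reached past 0 with a square of 800 kb (-0.39 to 0.017) and after smoothing (-0.40 to 0.010). Leaving out each MEF library in turn gave 54.0% to 54.4% detected. Only the pooled Hi-C matrix was used, so a median square of 343 read pairs leaves the level of a single square known to about 10.6% either way from counting alone. No paired analysis was possible because the results come from no test and the Hi-C replicates were pooled.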
